A study of Mus musculus with 10 samples.

Results

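The subject here is a family of 7 genes for pepsin-like aspartic proteases, Cym, Ctse, Pgc, Ctsd, Napsa, Bace1 and Bace2, in pancreas of mice that lack the Hippo kinases MST1 and MST2. The 7 were chosen by symbol from the platform annotation, among 19938 genes measured by a transcript cluster of their own. Each had 1 cluster, so no choice between clusters was needed. Cym was singled out because it had the largest increase of all genes in DKO against control, so its values are described and not tested. The other 6 were taken for their family and were tested in a fit across all genes.

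Pancreas RNA was measured on Affymetrix Mouse Gene 1.0 ST arrays, with 5 samples labelled control and 5 labelled DKO, all of mixed strain background. The DKO genotype was PDX1Cre, Mst1-/-, Mst2L/L. Mst1 was thus null in every cell of the animal, while the Mst2L/L allele, which by the usual notation is floxed, was lost only in cells that had made Cre, which the Pdx1 promoter drives in the progenitors of acinar, duct and islet cells. Pancreatic cells of other origin, such as blood and vessel cells, would lack MST1 alone. For the controls the labels say only Control, so whether they carried Cre or a floxed allele is not known, and no age is given. The labels do not say that the samples of a group came from separate animals, and the p-values then rest on the spread among the 5 arrays of each group.

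Aspartic proteases of the pepsin type are folded from a pair of similar lobes, each of which gives an aspartate to the active site. Most are made as inactive zymogens whose propeptide is removed in acid, either outside the cell, as for the gastric pepsins, or inside endosomes and lysosomes. Chymosin, the product of Cym, clots milk in the stomach of suckling mammals. The main digestive proteases of pancreatic juice belong to other classes, the serine proteases and the metallocarboxypeptidases. Because bulk tissue was measured, fewer cells of a type and less RNA per cell cannot be told apart for any gene below.

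Upstream sequence was available for 3 of the 7 genes, Cym, Pgc and Ctsd, in RefSeq's GRCm38.p6 annotation. The 250 bases before each annotated start site are shown because Cym, which was higher in DKO, can there be set beside its gastric relative Pgc and its lysosomal relative Ctsd, which did not pass the test. The Cym window is chr3:107221733-107221982 on the minus strand, that of Pgc is chr17:47726592-47726841 on the plus strand, and that of Ctsd is chr7:142387828-142388077 on the minus strand. Capitals mark letters that match a motif on either strand. The first motif searched was the TATA box, spelled TATAAA. The second was the core of sites for TEAD, the factors through which YAP and TAZ act, spelled GGAATG. The third was the core of sites for RBPJ, spelled TGGGAA, and the fourth was the E box, spelled CANNTG.
Cym: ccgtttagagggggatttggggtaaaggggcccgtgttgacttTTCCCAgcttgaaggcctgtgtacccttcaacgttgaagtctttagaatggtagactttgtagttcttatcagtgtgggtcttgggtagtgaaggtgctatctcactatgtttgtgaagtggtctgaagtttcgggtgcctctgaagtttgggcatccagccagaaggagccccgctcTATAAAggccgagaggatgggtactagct
Pgc: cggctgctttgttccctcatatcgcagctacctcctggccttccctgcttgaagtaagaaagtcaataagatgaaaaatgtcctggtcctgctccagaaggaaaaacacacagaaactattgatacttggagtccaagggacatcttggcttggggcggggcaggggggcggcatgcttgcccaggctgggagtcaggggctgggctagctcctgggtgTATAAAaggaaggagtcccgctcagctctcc
Ctsd: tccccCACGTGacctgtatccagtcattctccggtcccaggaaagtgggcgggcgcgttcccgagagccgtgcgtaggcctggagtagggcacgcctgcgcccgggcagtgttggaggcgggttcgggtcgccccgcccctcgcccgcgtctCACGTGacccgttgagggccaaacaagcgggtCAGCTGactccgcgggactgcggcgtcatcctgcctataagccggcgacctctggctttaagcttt

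The windows differ in build. TATAAA stands at -29 to -24 before the start of Cym and at -31 to -26 before that of Pgc, and 12.4% of all 32851 windows of this length hold it. The Cym window also holds TTCCCA, the RBPJ core on the opposite strand, at -207 to -202, as do 21.6% of windows in either orientation. In the Ctsd window no TATAAA was found, and it has E boxes at -245, -98 and -66, the first 2 of them CACGTG. E boxes occur in 66.2% of windows. The TEAD core, present in 12.6% of windows, was not found in any of the 3. These are letter matches in a short window and say nothing about what binds there.

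All levels below are log2 intensities as deposited, so a step of 1 is a factor of 2. The median level of an array was 7.12 to 7.15, and r across genes was 0.976 to 0.995 for the pairs of arrays. Stk4, the gene of MST1, read 5.15 ± 0.09 in control and 5.13 ± 0.06 in DKO (SD, n = 5 each; control arrays 1 to 5 at 5.11, 5.23, 5.19, 5.01 and 5.20, DKO arrays at 5.10, 5.10, 5.21, 5.16 and 5.07). Sex-linked genes on arrays that do not express them read 3.99 to 5.75, so Stk4 was near background in both groups and gave no check of the labels. The sex of the samples was not a term in any fit, and its balance between the groups is not given here. Stk3, the gene of MST2, had no cluster assigned to it alone and was not analysed here. The hepatocyte markers averaged 11.66 in DKO replicate 1 against 6.55 to 7.82 on the other 9 arrays, so that array stands apart. Over all genes, 487 passed a limma adjusted p of 0.05, or 2.44% of those tested, with 414 higher in DKO (2.08%) and 73 lower (0.366%).

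Cym stood at 8.69, 8.59, 8.38, 7.59 and 8.93 on control arrays 1 to 5. On DKO arrays 1 to 5 it stood at 12.13, 12.42, 12.36, 12.17 and 12.36. Its control values lay above the 3.99 to 5.75 of sex-linked genes on arrays that do not express them. Aqp2, a marker of kidney tubule, read 7.18 to 7.85 on the same 10 arrays, so expression of Cym in each control was not established. Every DKO array stood above every control array, the lowest DKO value being 3.20 above the highest control value. The means were 8.44 ± 0.52 and 12.29 ± 0.13 (SD, n = 5 each). The difference was 3.85 ± 0.21 (SE) on the log2 scale, or 14.4-fold, with a 95% interval of 10.5-fold to 19.8-fold, which describes the gene that was picked for this difference. Groups did not overlap in 4.80% of all genes.

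The spread of Cym differed between the groups as measured. Control values covered 1.35 log2 units, or 2.54-fold, and DKO values covered 0.30, or 1.23-fold. The control SD was larger than that of 98.9% of genes, while the DKO SD was larger than that of 52.7%. Much of the control spread came from replicate 4, at 7.59. Without that array the difference was 3.64 ± 0.11 (SE), and without control replicate 5, the highest, it was 3.97 ± 0.20 (SE). Leaving out DKO replicate 1, the array with hepatocyte transcripts, gave 3.89 ± 0.22 (SE).

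**Figure D1:**
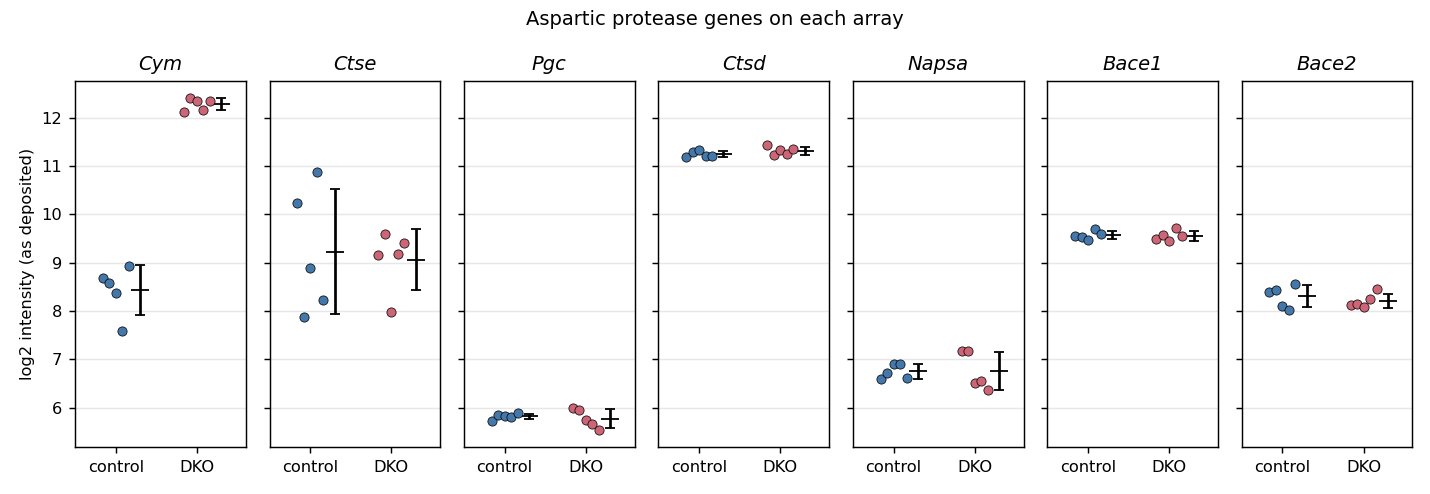
Log2 intensity (vertical axis) of the 7 aspartic protease genes on each of the 10 arrays; points are arrays in replicate order from left to right, and the bar beside them is the mean with its SD (n = 5). Cym lies at 12.13 to 12.42 in DKO and at 7.59 to 8.93 in control, while the groups overlap for the other 6 genes and Ctse covers 7.88 to 10.88 within the controls alone.

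None of the other 6 family members passed the test, by limma over all genes, and none had an unadjusted p under 0.05. Their changes ran from -0.16 to 0.07 on the log2 scale, with a median of -0.03 beside -0.01 for all genes, 2 positive and 4 negative. Control and DKO arrays overlapped for all 6. A count of 0 of 6 is not set apart from the 2.44% of all genes that passed. More is given by the 95% intervals of the changes, whose upper ends were 1.29-fold or less for 5 of the 6 and 2.08-fold for Ctse.

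Pgc codes for progastricsin, a pepsinogen of gastric chief cells, and is with Cym the member best known from the stomach. Its values were 5.73, 5.85, 5.82, 5.80 and 5.88 in control and 5.99, 5.95, 5.75, 5.65 and 5.53 in DKO. All 10 lay in or just above the range of sex-linked genes where these are not expressed, and the DKO values lay on both sides of the control values. The log2 difference was -0.04 ± 0.09 (SE, adjusted p = 0.843), with a 95% interval of 0.852-fold to 1.11-fold. Near background an array compresses differences, so that interval holds for the measured intensity.

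Ctsd, cathepsin D, the main aspartic protease of lysosomes, had the smallest SE of the 7. It read 11.20, 11.30, 11.33, 11.21 and 11.21 in control and 11.43, 11.23, 11.33, 11.25 and 11.35 in DKO. The log2 difference was 0.07 ± 0.05 (SE, adjusted p = 0.570), with an interval of 0.968-fold to 1.14-fold. The highest value was that of DKO replicate 1, the array with the hepatocyte transcripts, and without that array the difference was 0.041 ± 0.05 (SE, adjusted p = 0.701). Across the 10 arrays Ctsd correlated with the mean of the hepatocyte markers with r = 0.819 (permutation p = 0.00214, adjusted p = 0.0578) and rho = 0.746 (permutation p = 0.0163, adjusted p = 0.220), and with r = 0.684 without DKO replicates 1 and 5. That relation did not pass after adjustment over the 54 relations computed, and what part liver RNA has in it was not tested.

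Bace1 and Bace2 code for membrane-bound proteases. Bace1 is the beta-secretase that opens the cleavage of the amyloid precursor protein, and Bace2 is its close relative, known in pancreatic beta cells for trimming the membrane protein collectrin. Bace1 read 9.55, 9.54, 9.48, 9.69 and 9.60 in control and 9.49, 9.57, 9.45, 9.73 and 9.55 in DKO, a log2 difference of -0.01 ± 0.06 (SE, adjusted p = 0.940) and an interval of 0.900-fold to 1.09-fold. Bace2 read 8.40, 8.44, 8.10, 8.03 and 8.56 in control and 8.13, 8.14, 8.08, 8.25 and 8.45 in DKO, where 4 of 5 values lay below the control mean. The log2 difference of Bace2 was -0.09 ± 0.11 (SE, adjusted p = 0.715), with an interval of 0.791-fold to 1.11-fold, and ran from -0.164 without control replicate 4 to -0.030 without control replicate 5.

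Ctse, cathepsin E, is an aspartic protease of endosomes, found in gastric epithelium, immune cells and red blood cells. It had by far the widest spread of the 7. Control replicates 1 to 5 read 10.24, 7.88, 8.90, 10.88 and 8.23, a range of 7.99-fold, and DKO replicates read 9.17, 9.60, 7.97, 9.18 and 9.41, a range of 3.10-fold. The control SD of 1.29 was larger than that of 99.9% of genes. With such scatter the log2 difference of -0.16 ± 0.55 (SE, adjusted p = 0.911) had an interval of 0.386-fold to 2.08-fold. A change of Ctse by a factor of 2 was therefore not detectable here, while an increase of the size of Cym lies outside the interval.

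The spread of Ctse ran with that of red blood cell genes. The mean of the erythroid markers Slc4a1, the band 3 anion exchanger, and Alas2, the first enzyme of erythroid haem synthesis, was 10.64, 8.88, 9.40, 10.95 and 9.36 for the controls and 9.74, 9.69, 9.01, 9.88 and 9.69 for the DKO arrays. Only these 2 of 6 listed markers were measured, and neither was near background. Their mean correlated with Ctse with r = 0.960 (permutation p = 8e-05, adjusted p = 0.00432) and rho = 0.903 (permutation p = 0.00092, adjusted p = 0.0497) over the 10 arrays. This was the only relation, of 54 between the 6 proteases and 9 marker lists, that passed adjustment by both measures. The r was 0.965 on deviations from the group means, and 0.910 without control replicates 1 and 4, the arrays with the highest erythroid mean. The part of red blood cells in the spread of Ctse was not tested beyond these values.

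The 2 erythroid markers did not follow Ctse equally, with r = 0.969 for Slc4a1 and 0.794 for Alas2 over the 10 arrays, given as descriptions. Slc4a1 read 11.03 and 11.42 in control replicates 1 and 4, where Ctse was highest, and 8.92 and 9.09 in control replicates 2 and 5, where it was lowest. Alas2 read 10.25 and 10.48 in the first pair and 8.83 and 9.63 in the second, but it was lower in control replicate 3 (8.83) than in replicate 5, the reverse of Ctse. Of the erythroid genes picked because they tracked Ctse, Car2, a carbonic anhydrase that is abundant in red cells, read 10.78 and 11.22 in the first pair and 8.47 and 8.91 in the second. Rhag, the Rh-associated glycoprotein, read 8.07 and 8.96 in the first pair and 5.42 and 5.53 in the second. The log2 difference of Ctse between groups with the erythroid mean as a covariate was 0.19 ± 0.16 (SE, adjusted p = 0.529), so that its SE fell from 0.55 to 0.16 and its sign turned. That covariate was added after the spread of Ctse had been seen. The corresponding value for Cym was 3.77 ± 0.18 (SE). Neither erythroid marker passed the test between groups (adjusted p = 0.706 and 0.931).

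Napsa, napsin A, is an aspartic protease of lung and kidney epithelium that mouse lymphoid tissue also expresses. It read 6.59, 6.72, 6.91, 6.91 and 6.62 in control and 7.18, 7.17, 6.51, 6.56 and 6.37 in DKO. DKO replicates 1 and 2 were thus above every control array and the other 3 DKO arrays below every control array. The log2 difference was 0.01 ± 0.16 (SE, adjusted p = 0.987), with an interval of 0.785-fold to 1.29-fold, and its sign changed on leaving out control replicate 1, 2 or 5 or DKO replicate 1 or 2 (-0.10 to 0.10 over the 10 arrays).

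The same DKO arrays 1 and 2 had the highest mean of the B cell and plasma cell markers, 6.39 and 6.36, against 5.63 to 5.75 in the other DKO arrays and 5.70 to 6.31 in control. The relation with Napsa gave r = 0.865 (permutation p = 0.00396, adjusted p = 0.0713) and rho = 0.782 (permutation p = 0.0110, adjusted p = 0.220), and r = 0.653 without DKO replicates 1 and 2, so it did not pass after adjustment and leans on those arrays. Cd79b, a chain of the B cell receptor, read 8.50 and 8.43 in them and 6.64 to 7.23 in the other DKO arrays. With the B cell mean as a covariate, also added after the fact, the log2 difference of Napsa was -0.03 ± 0.09 (SE, adjusted p = 0.883). Of the 8 measured B cell markers Cr2 and Jchain were at background on all arrays. Of 8 markers of lung epithelium and kidney tubule none passed the test, 3 (Sftpc, Scgb1a1 and Kap) were at background on all arrays, and the list mean was 6.14 to 6.51 in control and 6.05 to 6.27 in DKO. Others of the list read higher, from 6.12 for Sftpb to 7.85 for Aqp2, and whether pancreas expresses them was not tested. All Napsa values, 6.37 to 7.18, lay in that span, so Napsa too may be near its floor.

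**Figure D2:**
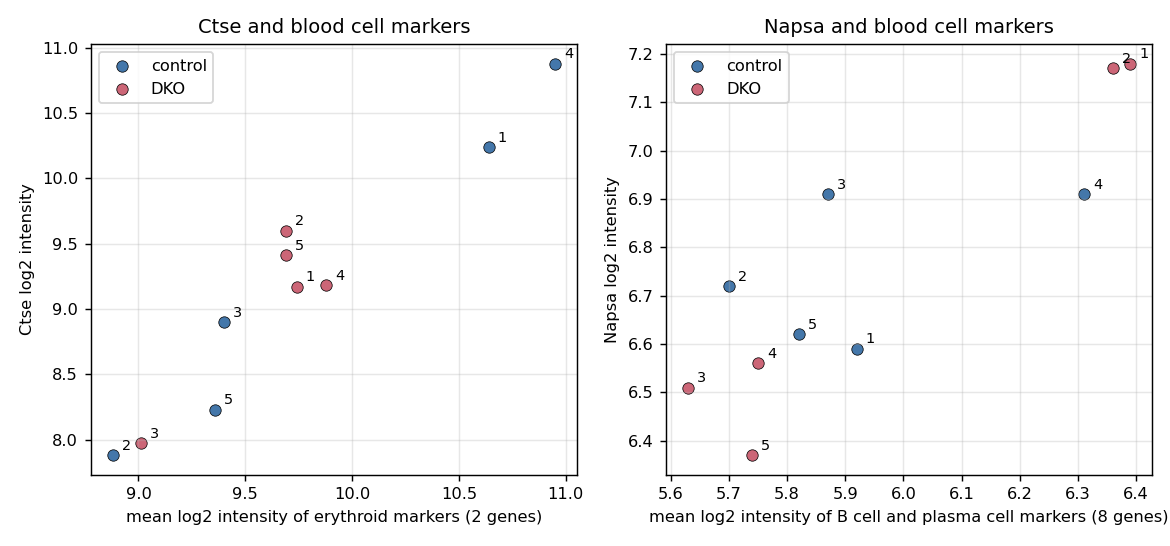
Left, Ctse log2 intensity against the mean of 2 erythroid markers; right, Napsa against the mean of 8 B cell and plasma cell markers, with 1 point per array, coloured by group and numbered by replicate. Ctse rises with the erythroid mean across both groups (r = 0.960, 10 arrays), and the Napsa values of DKO replicates 1 and 2 lie apart at the upper right.

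Of 13 further aspartic protease genes listed, 8 were measured by a cluster of their own, and none passed the test, with 2 at an unadjusted p under 0.05. The median log2 change was -0.13, with 6 of 8 negative. Pga5, pepsin F, a gastric pepsinogen of young mice and thus the listed gene nearest to Cym in kind, read 9.11, 8.47, 8.74, 7.25 and 9.56 in control and 7.87, 7.40, 8.46, 8.86 and 8.82 in DKO. Its log2 difference was -0.34 ± 0.41 (SE, adjusted p = 0.723), with an interval of 0.421-fold to 1.48-fold, so that a rise like that of Cym lies outside it as well.

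Within the controls Cym, Bace2, Pga5, Sppl3 and Ddi1 were each lowest in replicate 4 and highest in replicate 5. That order was seen in 1070 of all genes, or 5.37%, and in these 5 of the 15 aspartic protease genes measured. The 5 are named here because they share it, and whether their share differs from that of all genes was not tested. In DKO, Cym ranged over 1.23-fold and Pga5 over 2.75-fold.

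The other listed genes that were measured cut peptide bonds inside membranes or belong to the retroviral type. Psen2, a catalytic subunit of gamma-secretase, was lower in 5 of 5 DKO arrays than the control mean, by a log2 difference of -0.24 ± 0.09 (SE, adjusted p = 0.225). Ddi1, a retroviral-type protease relative, differed by -0.19 ± 0.07 (adjusted p = 0.244) at background level. The signal peptide peptidase-like genes gave 0.04 for Sppl2a, -0.10 for Sppl2b, -0.13 for Sppl2c and 0.05 for Sppl3, and the skin protease gene Asprv1 gave -0.12. Adjusted p-values of these 5 lay between 0.508 and 0.781.

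Genes beside Cym on its chromosome did not pass the test. The 5 nearest measured genes on each side, in the order of RefSeq's gene table, changed by -0.13 to 0.24 on the log2 scale, with a median of 0.02. Of the 10, none passed by limma and 1 had an unadjusted p under 0.05, and the groups overlapped for all 10. That 1 was the transporter gene Slc16a4, at 0.24 ± 0.09 (SE, adjusted p = 0.252). The immediate neighbours were the potassium channel gene Kcna10 (-0.13, adjusted p = 0.370) and Prok1, the gene of the secreted peptide prokineticin 1 (0.01, adjusted p = 0.985). On the Kcna10 side followed Kcna2 (0.03), AI504432 (0.07), Kcna3 (-0.09) and the odorant receptor gene Olfr266 (-0.02). On the Prok1 side Lamtor5 (-0.05), Rbm15 (0.04) and the channel gene Kcnc4 (0.13) were measured besides Slc16a4.

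**Figure D3:**
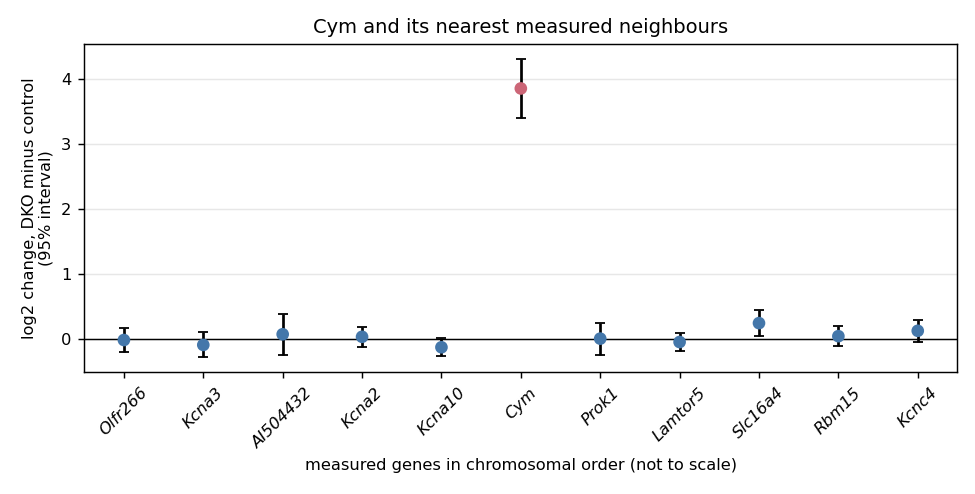
Log2 change, DKO minus control, with its 95% interval for Cym and the 5 nearest measured genes on each side, in chromosomal order and not to distance. The 10 neighbours lie between -0.13 and 0.24 and Cym at 3.85.

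Likeness to Cym across all 10 arrays was measured first with its difference between groups included. That difference dominates the measure, so the nearest genes had to be ones with a large increase in DKO. With every gene centred on its control mean, the root mean square difference from Cym over the 10 arrays was 0.56 for the potassium channel gene Kcnj15, 0.89 for the phospholipase gene Pla1a, 1.07 for Clca3a1, 1.17 for Clca3a2 and 1.24 for the troponin gene Tnnc1. The root mean square of Cym itself was 2.74. The Clca3 genes are close copies whose probes may share signal, so they may not be separate measurements. Kcnj15 read 5.84 to 6.32 in control and 9.05 to 10.28 in DKO, so that its wide group was the DKO group, unlike Cym.

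Likeness within the groups picked other genes. On deviations from the group means, where Cym had a root mean square of 0.34, the smallest differences were 0.16 for Npr3, a clearance receptor of natriuretic peptides, 0.19 for Rims2, a protein of regulated exocytosis, and 0.20 for Dusp6, a phosphatase of ERK kinases. The kinase gene Mark1 followed with 0.20 and Msln, the gene of mesothelin, with 0.21. All 5 were lowest in control replicate 4 among the controls, as Cym was, and all 5 had overlapping groups. Npr3 read 8.11, 7.97, 7.93, 7.52 and 8.34 in control and 7.92, 8.42, 8.18, 8.12 and 8.16 in DKO. These genes were selected for that resemblance among all genes, so it is a description of the 10 arrays.

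Lists of genes that work with these proteases are given by their counts. Among 15 cysteine and serine proteases of lysosomes and their inhibitors none passed the test, with 6 at an unadjusted p under 0.05 and 12 of 15 positive. Over all genes 14.8% had such an unadjusted p, a share to hold beside this and the other lists. The median log2 change was 0.17, beside -0.01 for all genes. The smallest p-values belonged to Ctsc, cathepsin C, which activates granule serine proteases (0.22 ± 0.07 SE, adjusted p = 0.180), Ctsl, cathepsin L (0.21 ± 0.07, adjusted p = 0.198), and Lgmn, the asparaginyl endopeptidase legumain (0.39 ± 0.14, adjusted p = 0.207). Each stood above the control mean in 5 of 5 DKO arrays, while Ctsd stood above it in 4.

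Of 15 other lysosomal genes measured, none passed, 2 had an unadjusted p under 0.05, and the median log2 change was 0.05. Igf2r, the receptor that carries new lysosomal enzymes such as cathepsin D to endosomes, came nearest. It read 9.75, 9.81, 9.74, 9.73 and 9.76 in control and 9.83 or more in DKO, lowest in DKO replicate 4, so the groups did not overlap. Its log2 difference was 0.20 ± 0.05 (SE, adjusted p = 0.0592), which was 0.0331 without DKO replicate 4 and 0.104 to 0.144 with any other array left out.

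Of 17 genes for substrates of the beta-secretases, parts of gamma-secretase and the alpha-secretases Adam10 and Adam17, 1 rose and none fell, with 6 at an unadjusted p under 0.05. Aplp2, a relative of the amyloid precursor protein, read 10.75, 10.74, 10.70, 10.85 and 10.80 in control and 11.15, 11.17, 11.04, 11.02 and 11.10 in DKO. Every DKO value was above every control value, and the log2 difference was 0.33 ± 0.05 (SE, adjusted p = 0.00663). L1cam (0.19, adjusted p = 0.102) and the alpha-secretase gene Adam10 (0.29, adjusted p = 0.165) did not pass. Cltrn, the gene of the Bace2 substrate collectrin, was below the control mean in 5 of 5 DKO arrays, by a log2 difference of -0.51 ± 0.18 (SE, adjusted p = 0.210). The list median was 0.09, and over all genes 2.08% passed as higher in DKO.

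Cym and Pgc are enzymes of the stomach, and markers of gastric epithelium went both ways. Of 18 measured, 1 rose and 2 fell, beside 2.08% and 0.366% of all genes, and 4 had an unadjusted p under 0.05. The median log2 change was -0.07. Anxa10, an annexin of gastric epithelium, read 5.18 to 5.63 in control and 5.94 to 7.71 in DKO (1.44 ± 0.32 SE, adjusted p = 0.0424). The mucin gene Muc6 fell by 0.39 ± 0.07 (SE, adjusted p = 0.0210), and the trefoil factor gene Tff2 fell by 0.29 ± 0.06 (SE, adjusted p = 0.0309). Each of these calls was lost on leaving out at least 1 array. The log2 difference of Anxa10 itself ran from 1.22 to 1.66 with 1 array left out. Anxa10 missed the threshold when any of 8 arrays was left out, and at most its adjusted p was 0.105, in the absence of control replicate 2. Tff2 missed it for 7 arrays, with 0.0911 at most in the absence of the same array, and Muc6 missed it in the absence of control replicate 5 (adjusted p = 0.0579). The levels of Tff2 and Muc6 were far apart. Tff2 read 12.94 to 13.08 in control and 12.62 to 12.86 in DKO, at percentile 99.8 of all genes. Muc6 read 6.29 to 6.64 in control and 5.87 to 6.11 in DKO. Its lowest value lay close to the 5.75 reached by sex-linked genes that are not expressed, so Muc6 may be near the floor. Which cells the Tff2 transcript came from was not tested, so its fall is not a measure of stomach-type cells.

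Muc6 and Tff2 mark mucous neck and gland cells of the stomach, and genes of other gastric cells gave no call. Those of chief and parietal cells, Cblif, Lipf, Atp4a and Atp4b, and those of pit cells, Gkn1, Tff1 and Muc5ac, had adjusted p-values of 0.401 to 0.885, and Lipf and Vsig1 were at background on all arrays. The mean of the gastric list was 6.76 to 6.94 in control and 6.81 to 6.99 in DKO. The gastric claudin gene Cldn18 had a log2 difference of 0.90 ± 0.33 (SE), with an adjusted p of 0.223. Gkn3 of the same list did not fall with Muc6 and Tff2 (-0.05 ± 0.74 SE, adjusted p = 0.98). It read 9.52 in control replicate 1 and 8.97 in DKO replicate 4, against 5.90 to 7.29 on the other arrays. Cblif was also highest on those arrays, at 6.83 and 7.19, against 5.98 to 6.46 elsewhere.

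**Figure D4:**
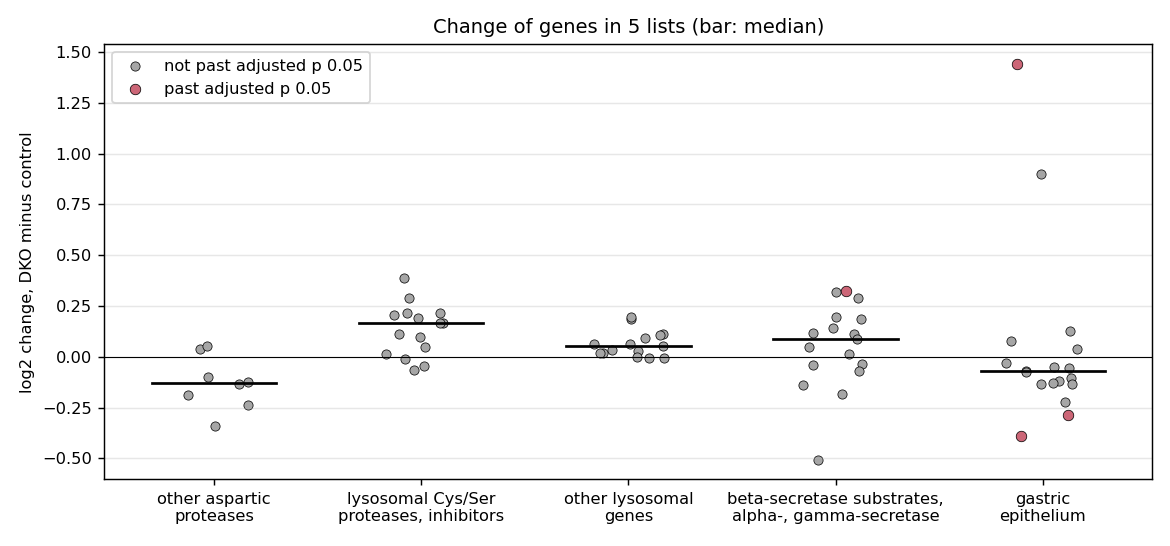
Log2 change, DKO minus control, of each measured gene in 5 lists (other aspartic proteases, lysosomal proteases and inhibitors, other lysosomal genes, beta-secretase substrates with alpha- and gamma-secretases, and gastric epithelium); each point is a gene, red where its adjusted p was under 0.05, and the bar is the list median. No list other than the gastric one holds a gene beyond 0.51 in either direction, and the called genes are Aplp2, Anxa10, Muc6 and Tff2.

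Markers of the pancreas itself were as follows. Of 11 acinar genes Rbpjl, a DNA-binding partner of PTF1A in acinar cells, fell by 0.45 ± 0.09 (SE, adjusted p = 0.0225), and none rose. It missed the threshold on removal of control replicate 3 (adjusted p = 0.0689), of control replicate 5 (0.0608) and of DKO replicate 4 (0.0562). The acinar mean was 12.52 to 12.66 in control and 12.12 to 12.51 in DKO, lowest in DKO replicate 1. Of 9 duct genes 4 rose, the keratins Krt7 (1.22, adjusted p = 0.00113) and Krt19 (0.41, adjusted p = 0.0155), the claudin Cldn4 (1.37, adjusted p = 0.00227) and Pkhd1, a gene of cilia (0.40, adjusted p = 0.0462), and the duct mean was 8.81 to 8.97 in control and 9.24 to 9.50 in DKO. Pkhd1 missed the threshold for any of 8 arrays left out, with an adjusted p of at most 0.119, reached in the absence of control replicate 3. Not all duct genes went up, as 7 were positive and 2 negative. An unadjusted p under 0.05 was seen for 7 of the 9 duct genes and 2 of the 11 acinar genes, beside 14.8% of all genes. Over all genes 2.08% passed as higher in DKO and 0.366% as lower. Sox9 was lower on every DKO array than on every control array but did not pass (-0.26 ± 0.08 SE, adjusted p = 0.149), and Onecut1 changed by -0.10. The duct and acinar means thus did not overlap between groups. The acinar means nearly touched, at 12.52 for the lowest control and 12.51 for the highest DKO array, and 9 of the 11 acinar genes overlapped. The part of duct and acinar cells in the Cym difference was not tested.

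Of 11 islet genes, 11 macrophage and dendritic cell genes, 8 B cell and plasma cell genes and 10 hepatocyte genes none passed by limma (2, 2, 0 and 0 at an unadjusted p under 0.05). The list means overlapped between groups for each, at 10.12 to 10.32 in control and 10.01 to 10.19 in DKO for islets and 8.30 to 8.70 and 8.19 to 8.59 for macrophages. The smallest p-values were those of Iapp, islet amyloid polypeptide (-0.32, adjusted p = 0.0971) and C1qa, a complement gene of macrophages (-0.46, adjusted p = 0.0556), and C1qa was past the threshold under 9 alternatives (adjusted p 0.0336 to 0.0499). The other C1q genes listed did not share its direction, with 0.11 for C1qb (adjusted p = 0.717) and 0.13 for C1qc (adjusted p = 0.715). Of the 11 macrophage and dendritic cell genes 7 were positive and 4 negative.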

How the data were processed

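Levels of 10 pancreas samples (5 control, 5 DKO) were taken from the authors' deposited log2 values, 1 per transcript cluster and array, made with Affymetrix Expression Console per the submitters' processing notes. How that program corrected background and normalized, and its version, is not given in the sources used here. Values entered the fit as deposited, without filter or pseudocount. Of 35556 clusters, 21789 had 1 gene symbol, 1621 several and 12146 none here. Symbols were updated by gene ID through RefSeq's GRCm38.p6 table (21698 matched), and the brightest cluster stood for a gene, leaving 19938.

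DKO was set against control by limma 3.58.1 under R 4.3.3 (lmFit, eBayes, two-sided, 10.96 total degrees of freedom), Benjamini-Hochberg over all genes, threshold 0.05. Every adjusted p of a gene comes from limma. Tested on simulated data of the 19938 genes in DKO against control, it recovered 77.6% of changes of 0.5, 98.5% of 1 and 100% of 2 on the log2 scale. The simulated noise was independent between genes, with the same SD in both groups, and the changed genes were drawn at random. These averages therefore do not give the power for a gene as variable as Ctse. Correlations of 6 proteases with 9 marker list means used two-sided permutation tests (100000 permutations), adjusted over 54.

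The members and the 13 lists were chosen with earlier results of these data known. Genes named are the members, the further aspartic proteases, list members that passed or had up to the 3 smallest p-values, 5 neighbours on each side of Cym, and the 5 genes most like Cym by each of 2 measures, without predicted loci. Other list members, and the erythroid and B cell genes beside Ctse and Napsa, were named after their values were seen. Alternatives were another normalization, leaving out arrays, a replicate block, dim-gene filters, other variance models, array weights, averaged clusters and a stricter threshold. Protein sequences were not used here.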

Additional observations from a re-analysis of the deposited data

Results flagged for a closer look

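Among 30 groups of 5 arrays checked (15 aspartic protease genes in control and DKO), 3 held an array whose gap to its nearest neighbour was over 0.71 of the group's range, and chance gives about 1 in 20. Ctse in DKO replicate 3 read 7.97, below the other DKO arrays at 9.17 to 9.60, and the erythroid marker mean of that array, 9.01, was also the lowest of the DKO group. Sppl2b in control replicate 4 read 9.78, above the other controls at 9.26 to 9.41. Sppl3 in DKO replicate 2 read 9.87, below the others at 10.06 to 10.11.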

How the results depend on the processing

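The Cym difference was 3.64 to 3.97 over 19 other settings. None of the other 6 proteases passed the threshold in any alternative run. Pgc gave no value with the dimmest 25% of genes left out, nor Pgc or Napsa with the dimmest 50%. Subtracting array medians gave 0.028 for Ctsd, and array weights gave -0.18 for Bace2. Signs near 0 were not stable, and the cause was not tested. Array weights gave a log2 difference of 0.089 for Ctse, 0.022 for Alas2, -0.039 for Mark1, -0.0093 for Prok1 and -0.060 for Rims2. Subtracting array medians gave -0.033 for Napsa, -0.0065 for Kcna2, -0.0087 for Mark1, -0.035 for Prok1, -0.034 for Rims2 and -0.0028 for Sppl2a, and quantile normalization gave 0.0099 for Olfr266. The erythroid covariate gave 0.19 for Ctse and 0.0052 for Bace1, and the B cell covariate -0.032 for Napsa, both added after the data were seen. Leaving out 1 array moved Ctse from -0.50 to 0.25, Pgc from -0.096 to 0.019, Napsa from -0.098 to 0.10, Bace1 from -0.056 to 0.017, AI504432 from -0.0042 to 0.20, Alas2 from -0.26 to 0.15, Mark1 from -0.063 to 0.11, Olfr266 from -0.068 to 0.032, Prok1 from -0.089 to 0.071, Rbm15 from -0.0043 to 0.082, Rims2 from -0.11 to 0.065 and Sppl2a from -0.0067 to 0.063.

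Leaving out 1 array moved Ctsd from 0.041 to 0.090 and Bace2 from -0.16 to -0.030. The 487 genes past the threshold became 260 to 433 with 1 array left out (260 without control replicate 3, 268 without control replicate 2, 303 without DKO replicate 5, 316 without DKO replicate 1 and 324 without DKO replicate 4), 298 without variance moderation and 163 at an adjusted p of 0.01. Whether the replicate numbers pair the samples is not known, since the labels do not say. Same-numbered arrays deviated from their group means with correlations of -0.27 to 0.29. These cannot decide the question, because a pairing need not dominate such deviations. The fit with the replicate number as a block called 178 genes and 0 of the list of secretases and their substrates, where Aplp2 had an adjusted p of 0.0717. Of the other lysosomal genes, 0 to 1 passed with 1 array left out (1 without DKO replicate 4), and 1 passed without variance moderation and with the dimmest 50% left out, Igf2r each time. Of 1189 values of 64 other named genes under the alternatives, 1109 kept direction and side of the threshold, 41 lost it, 12 gained it and 27 changed sign. Probes near background, such as those of Pgc, limit what a small difference can show.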
